A study of Mus musculus with 12 samples.

Results

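The granule proteases of mouse basophils and mast cells were followed through basophil maturation by bulk RNA sequencing. The set held 6 genes chosen by symbol for their known place in granules: Prss34, Mcpt8, Cpa3, Tpsab1, Tpsb2 and Cma1. Of these, 5 had a row in a table of 32227 genes, and 3 (Prss34, Mcpt8 and Cpa3) were among the 15083 genes that passed the count filter. Tpsb2 and Cma1 fell below it, and Tpsab1 was not analysed here, since no row carried that symbol or its synonym Mcpt7.

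The 12 libraries formed 4 groups of 3, all from wild-type C57BL/6J mice with no treatment named, and each was a pool of several animals. BaPs were CD200R3+ cKit- CLEC12A-high CD34+ bone marrow (BM) cells, sorted as unipotent basophil progenitors. Pre-basophils, titled immature basophils in the sample labels, were CD34- CLEC12A-high CD9-low BM cells. Mature basophils were CD34- CLEC12A-low CD9-high cells, sorted separately from the BM and from the spleen. Sex and age of the animals are not given in the sources used here. Clec12a transcripts followed the sort, at 129 to 327 CPM (reads scaled to a common library total) in the 6 CLEC12A-high libraries and 10.9 to 39.1 CPM in the 6 CLEC12A-low libraries. Library totals were first made comparable by TMM scaling, the trimmed mean of M values.

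Basophils and mast cells store proteases in cytoplasmic granules, where the positively charged enzymes are held on the sulfated sugar chains of the proteoglycan serglycin and are released when IgE receptors are crosslinked. Prss34 encodes mMCP-11, a tryptase made mainly by basophils in the mouse. Mcpt8 encodes mMCP-8, a serine protease used as a marker of mouse basophils, and Cpa3 encodes carboxypeptidase A3, which is shared with mast cells. Tpsab1 and Tpsb2 encode the mast cell tryptases mMCP-7 and mMCP-6, and Cma1 encodes the mast cell chymase mMCP-5.

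The genes lie in 3 places of the GRCm38 genome (GENCODE M21 models). Prss34 spans chr17:25298394-25300165 on the plus strand, close to Tpsb2 at chr17:25366305-25369098, also on the plus strand. In RefSeq, Tpsab1 lies between them at chr17:25343245-25345562 and is typed as a transcribed pseudogene in this C57BL/6J assembly. Mcpt8 at chr14:56082166-56085273 and Cma1 at chr14:55941451-55944675 are both on the minus strand of the chymase cluster. Cpa3 lies alone at chr3:20215620-20242181 on the minus strand.

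The 3 tested proteases moved together across the groups, so the sequences before their start sites were searched for short motifs on both strands: AGATAA for GATA factors, TGTGGT for RUNX factors, TTCNNNGAA for STAT5, CAGCTG for E-box factors and TATAAA for the TATA box. The window was the stretch of 250 bases before each start in the RefSeq promoter set of GRCm38.p6, which held 4 of the 6 genes. For each tested gene a stretch of 100 bases that holds motif matches, set by hand, is shown 5′ to 3′ on the gene's strand. Every motif match in it is in capitals. These are the GATA motif in Prss34 and the RUNX motif on either strand in Mcpt8. In Cpa3 they are, in order, the RUNX motif on the other strand, the E-box, the GATA motif and the TATA box. The stretches are chr17:25298294-25298393 (plus), chr14:56085298-56085397 (minus) and chr3:20242182-20242281 (minus). The RefSeq gene borders extend over the second and part of the third.
Prss34: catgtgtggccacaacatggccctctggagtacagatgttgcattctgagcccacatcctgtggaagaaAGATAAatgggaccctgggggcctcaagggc
Mcpt8: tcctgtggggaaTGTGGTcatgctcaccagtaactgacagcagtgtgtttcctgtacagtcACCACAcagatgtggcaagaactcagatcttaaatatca
Cpa3: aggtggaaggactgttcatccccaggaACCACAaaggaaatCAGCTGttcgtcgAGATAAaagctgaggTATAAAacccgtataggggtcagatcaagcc

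AGATAA stood 31 to 26 bases before the Prss34 start and 46 to 41 bases before the Cpa3 start, and 9.99% of 32851 RefSeq promoter windows of the same length held it. In Mcpt8, TGTGGT stood 188 to 183 bases before the start used in the promoter set and again, on the other strand, 139 to 134 bases before it. That start lies inside the GENCODE model of Mcpt8, so both matches are nearer to the GENCODE start. Cpa3 held TGTGGT on the other strand at 73 to 68 bases, CAGCTG at 59 to 54 bases and TATAAA at 31 to 26 bases, with a further TATAAA on the other strand at 242 to 237 bases. Of all windows, 14% held TGTGGT, 13% held CAGCTG, 12.4% held TATAAA and 7.02% held TTCNNNGAA. These matches describe letters only, and none of the 5 motifs was found in all 3 windows. The Cma1 window held none of the 5.

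Library totals ran from 3596108 to 8151030 counts, and 3 counts, taken as the floor, corresponded to 0.29 to 0.955 CPM. BaP replicate 3 stood apart from the other BaP libraries. Its summed T and NK cell markers (6 of 6 genes measured, with Cd3e at 31.2 CPM) came to 461 CPM against 13.7 to 15 in the other BaPs, and its summed erythroid markers (5 of 5) to 1510 CPM against 8.12 to 8.49. Its summed basophil markers (7 of 7) came to 4660 CPM against 7520 and 8270. Its mitochondrial RNA share was 3.53% of counts against 1.75% and 1.82%, and it had reads of 26743 genes against 21937 and 22209. For the proteases, each pairwise comparison with BaPs and that of CLEC12A-high with CLEC12A-low libraries is given with and without this library. The part of these differences in the results was not tested.

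Prss34 had the highest level of the 5 measured genes in every library. The 3 BaP libraries had 48653, 45396 and 17009 CPM of it, and the 3 pre-basophil libraries 49584, 42584 and 43264 CPM. It was at 5708, 5689 and 3798 CPM in mature BM basophils and at 883, 909 and 970 CPM in mature splenic basophils. The 6 CLEC12A-high libraries lay above all mature BM libraries, and these above all spleen libraries, without overlap. By raw count Prss34 ranked 2nd among all genes in each of the 6 CLEC12A-high libraries, behind the ribosomal RNA gene CT010467.1, and 119th to 130th in the spleen.

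Mcpt8 followed the same order at a lower level. Its values were 11980, 10618 and 5008 CPM in BaPs, against 12340, 10887 and 12449 CPM in the pre-basophil libraries. They were 1828, 1738 and 1627 CPM in mature BM basophils, and 553, 757 and 648 CPM in mature splenic basophils. Again BaPs and pre-basophils overlapped, and neither mature group overlapped any other group.

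Cpa3 varied least. It was at 2449, 2135 and 876 CPM in BaPs, while pre-basophils had 1929, 1658 and 1705 CPM. Mature BM basophils had 619, 566 and 548 CPM, and mature splenic basophils 382, 372 and 329 CPM. The lowest CLEC12A-high library, BaP replicate 3, was still above the highest CLEC12A-low library. All 3 proteases had all 6 CLEC12A-high libraries above all 6 CLEC12A-low libraries, as did 16.7% of all genes tested. For the mature BM and spleen groups, 3 libraries against 3, the share of all genes without overlap is not given here.

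**Figure D1:**
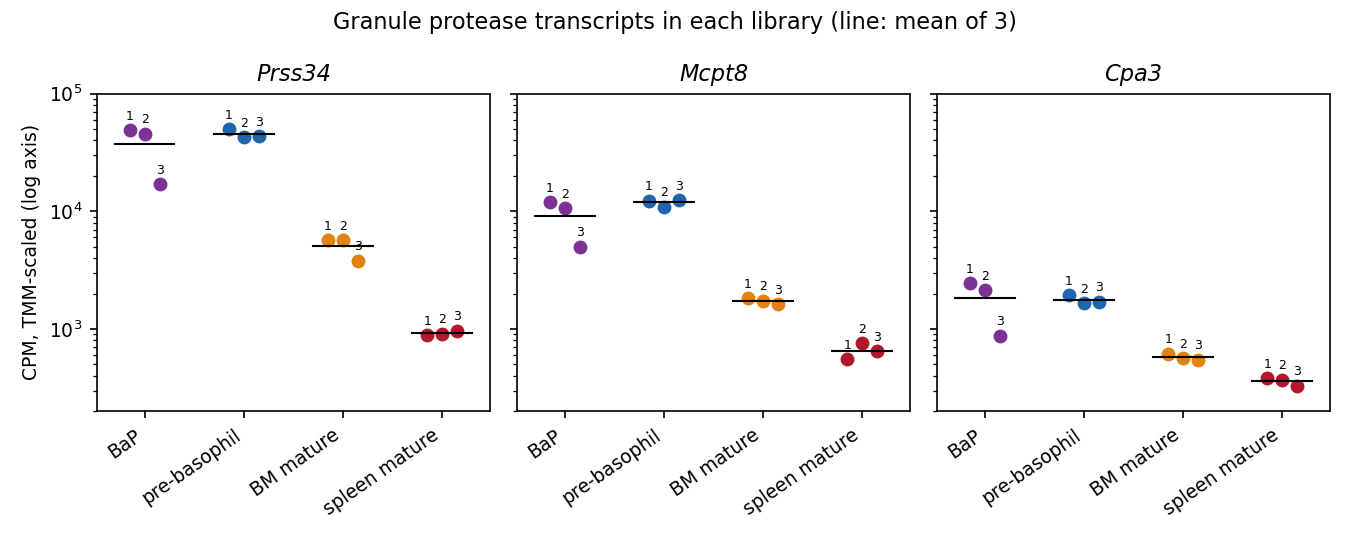
CPM of Prss34, Mcpt8 and Cpa3 in each of the 12 libraries on a log axis; points are libraries numbered by replicate, and lines are means of 3. Each protease was high in BaPs and pre-basophils and low in mature basophils, lowest in the spleen, and BaP replicate 3 lay below the other CLEC12A-high libraries in all 3 panels.

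Per kilobase of exon, the level of Prss34 in pre-basophils was 37003 ± 3164 (SD, n = 3) CPM per kb, above 11916 ± 874 (SD, n = 3) for Mcpt8 and 1163 ± 95.4 (SD, n = 3) for Cpa3. In mature splenic basophils the same levels were 755 ± 36.5, 654 ± 102 and 238 ± 18.5 CPM per kb (SD, n = 3 each). By this measure Prss34 and Mcpt8, far apart in pre-basophils, were nearly level in the spleen, where the spread of Mcpt8 reached the mean of Prss34. By raw count the Prss34 to Mcpt8 ratio was 1.2 to 1.6 in the 3 spleen libraries. Division by exon length assumes that reads spread evenly along a transcript, which was not checked.

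The mast cell tryptase Tpsb2 was almost absent. BaPs gave 2, 2 and 3 raw reads, pre-basophils 3, 1 and 5, with 1, 0 and 1 in mature BM basophils and 0, 0 and 0 in the spleen. All CLEC12A-low libraries lay below the floor of 3 counts, and only 3 CLEC12A-high libraries reached it. Reads of Tpsb2 could be shared with its close copy Tpsab1, which makes these counts uncertain.

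The chymase Cma1 gave raw counts of 2, 3 and 55 in BaPs, while pre-basophils had 4, 3 and 5. It gave 1, 3 and 4 in mature BM basophils and 2, 3 and 5 in the spleen. BaP replicate 3, at 5.33 CPM, was the only library above 5 counts, and it was also the library with the highest Kit (31.8 CPM against 7.07 to 11.5 CPM in the other BaPs), the stem cell factor receptor of mast cells and progenitors. BaPs were sorted as cKit- cells, a gate that leaves out cells with cKit on their surface, such as mast cells. Of the other mast cell markers, BaP replicate 3 had 0 reads of Mcpt1, Mcpt4 and Tpsg1 and 1 read of Mcpt9. Mrgprb1 was at 0.871 CPM in it against 0.239 and 0.943 CPM in the other BaPs, and Hs3st1 at 52.7 against 184 and 62.7 CPM. Its summed eosinophil markers were 176 CPM against 64.5 and 39.4 CPM. The part of any other cell type in the Cma1 value was not tested. With no count filter, Tpsb2 was called higher in CLEC12A-high libraries by the edgeR test described next (adjusted p = 0.0141), and Cma1 was too (adjusted p = 0.0218), where 15.3% of all genes were called higher, but without BaP replicate 3 only Tpsb2 was (adjusted p = 0.0135 against 0.812 for Cma1, with 16.9% of all genes called higher). No fold is given, since both groups lay at or near the floor. The unfiltered fit gave much smaller adjusted p than the filtered one at the same log2 change. For Prss34 at log2 4.24 it gave 6.13e-265 against 7.45e-09 (edgeR). Its p-values are not comparable with those of the filtered fit, and the calls of Tpsb2 and Cma1 rest on few reads.

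**Figure D2:**
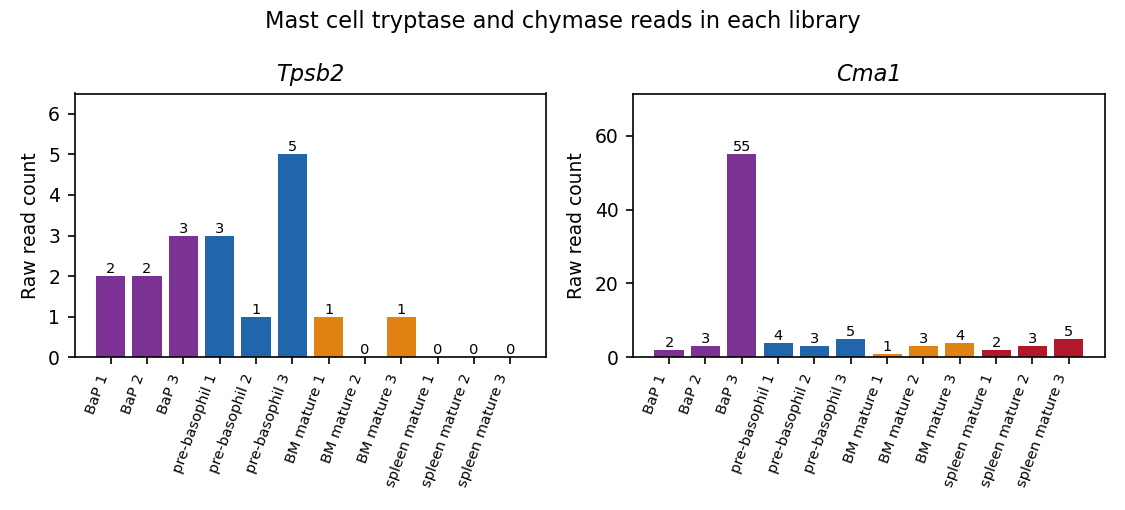
Raw read counts of Tpsb2 and Cma1 in each library, 1 bar a library, on linear axes that start at 0. Tpsb2 never passed 5 reads, and the 55 Cma1 reads of BaP replicate 3 stood apart from 1 to 5 in the other libraries.

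Other mast cell transcripts, apart from Hs3st1 and Kit, were at or near 0 as well. Of 10 mast cell markers outside the protease set, 7 were in the table, and Mcpt1 and Mcpt4, the chymases mMCP-1 and mMCP-4, had 1 read each over all 12 libraries. Mcpt9 had 1, 5, 11 and 7 reads over BaPs, pre-basophils, mature BM and mature splenic basophils, and the tryptase gamma gene Tpsg1 had 3, 9, 1 and 1. The summed marker level was 71.2 to 196 CPM in BaPs, 63 to 217 in pre-basophils, 66.1 to 135 in mature BM and 49.4 to 73.4 CPM in mature splenic basophils. Most of it came from Hs3st1, a heparan sulfate sulfotransferase gene. Without Hs3st1 the sum was 1.49 to 32.7 CPM, highest in BaP replicate 3, where Kit held 31.8 CPM of it. Mrgprb1 was at 0 to 1.44 CPM over the 12 libraries.

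Differences between groups were tested for all 15083 genes in 1 fit by edgeR's quasi-likelihood F test, with Benjamini-Hochberg adjustment over all genes and a threshold of 0.05. In bulk libraries, fewer cells of a type and less RNA per cell cannot be told apart. Over all 4 groups 3 of 3 tested proteases differed, as did 57.8% of all genes, with adjusted p of 7.76e-08 for Prss34, 8.26e-08 for Mcpt8 and 1.02e-05 for Cpa3 (edgeR). Of all calls, 59.8% were higher in pre-basophils than in mature BM basophils, 40.4% higher in the spleen than in the BM and 54.2% higher in CLEC12A-high libraries, and these shares moved to 82.5%, 60.6% and 75% with scaling by library size alone. Between BaPs and pre-basophils the share moved from 39.4% to 79.6%.

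The comparison of pre-basophils with mature BM basophils addressed the step from CLEC12A-high to CLEC12A-low cells within the marrow. All 3 tested proteases were higher in pre-basophils, against 16.3% of all genes called higher. Prss34 was 8.91-fold higher, a log2 fold change of 3.16 (SE 0.31, edgeR adjusted p = 1.16e-05). Mcpt8 was 6.87-fold higher (log2 2.78, SE 0.25, edgeR adjusted p = 6.43e-06), and Cpa3 was 3.05-fold higher (log2 1.61, SE 0.26, edgeR adjusted p = 0.000561).

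Between these groups the summed basophil markers went the other way, from 14000 to 15300 CPM in pre-basophils to 22400 to 26500 CPM in mature BM basophils. The chemokine gene Ccl3 made up most of the sum. Fcer1a, for a subunit of the IgE receptor, was at 1480 to 1700 CPM in pre-basophils and 856 to 934 CPM in mature BM basophils. Ms4a2, for another subunit, was at 966 to 1010 and 529 to 615 CPM. Il3ra was also higher in pre-basophils on average, and Cd200r3, Itga2 and Cd69 were lower. Summed neutrophil markers (9 of 9 measured) were also higher in pre-basophils, at 2360 to 3340 CPM against 156 to 255 CPM in mature BM basophils. Over pre-basophil replicates 1 to 3 Ngp rose, at 62.9, 141 and 367 CPM, as did S100a8, at 45.3, 148 and 333 CPM. S100a9, Camp and Ltf rose in the same order, and all of these also did so in BaPs. Ctsg (1190 to 1480 CPM), Mpo (441 to 623 CPM) and the proteases did not rise in that order in pre-basophils. Ctsg, Mpo, S100a8, S100a9 and Ngp made up most of the pre-basophil sum, and Elane, the neutrophil elastase gene, was at 2.56 to 5.03 CPM in pre-basophils against 0.187 to 0.318 CPM, 1 read a library, in mature BM basophils. Their part in the difference was not tested.

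BaPs were also compared with the mature BM group, and the 3 proteases were again all higher, against 25.3% of all genes. The log2 fold changes were 2.87 for Prss34, 2.41 for Mcpt8 and 1.66 for Cpa3, with edgeR adjusted p of 6.68e-06, 4.71e-06 and 0.000194. Without BaP replicate 3 the log2 changes were 3.23, 2.72 and 2, all called, against 27.4% of all genes called higher in that fit. This comparison shares the mature BM libraries with the one before it.

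BaPs and pre-basophils differ in the sort by CD34. None of the 3 proteases was called between them, while 7.08% of all genes were. No protease had an unadjusted p under 0.05 (edgeR). The log2 differences, BaP against pre-basophil, were -0.29 for Prss34 (95% interval -0.91 to 0.33), -0.37 for Mcpt8 (-0.88 to 0.14) and 0.04 for Cpa3 (-0.51 to 0.60), with edgeR adjusted p of 0.614, 0.39 and 0.952. These intervals leave room for differences in either direction. With the replicate number as a block and BM libraries only, 1292 rather than 784 genes were called, none of them one of the 3 proteases.

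BaP replicate 3 had 36.2% of the mean of the other BaPs for Prss34, 44.3% for Mcpt8 and 38.2% for Cpa3. Without this library Prss34 and Mcpt8 stood at log2 differences of 0.07 and -0.07 (edgeR adjusted p = 0.804 and 0.782). Cpa3 was then called 1.31-fold higher in BaPs (log2 0.39, SE 0.11, edgeR adjusted p = 0.0278), so that 1 of 3 proteases was called in a fit that called 12.4% of all genes.

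Mature basophils of the same sorted phenotype were compared between the spleen and the BM. Of the 3 proteases, 2 were lower in the spleen, where 4.67% of all genes were called lower. Prss34 fell by 2.46 on the log2 scale (SE 0.31, edgeR adjusted p = 0.00114) and Mcpt8 fell by 1.41 (SE 0.24, edgeR adjusted p = 0.00606). Cpa3 stood at a log2 difference of -0.68 (SE 0.26, 95% interval -1.24 to -0.12) and was not called (edgeR adjusted p = 0.126). All 3 spleen libraries lay below all 3 BM libraries for Cpa3, but the share of all genes that did so is not given here. Without BaP replicate 3, which is in neither group but in the same fit, the Cpa3 difference was again -0.68 and was called (edgeR adjusted p = 0.000178), in a fit that called 18.0% of all genes in either direction. Summed B cell markers (5 of 5) were 81.4 to 141 CPM in the spleen and 18.5 to 23.8 CPM in the mature BM libraries, and their part was not tested.

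Averaged over both groups of each kind, the 3 proteases were higher in CLEC12A-high than in CLEC12A-low libraries, against 31.0% of all genes. Prss34 was 18.9-fold higher (log2 4.24, SE 0.23, edgeR adjusted p = 7.45e-09), Mcpt8 9.84-fold (log2 3.30, SE 0.18, edgeR adjusted p = 8.03e-09) and Cpa3 3.92-fold (log2 1.97, SE 0.19, edgeR adjusted p = 1.08e-06). Without BaP replicate 3 the folds were 21.4, 11 and 4.43, all called, against 33.5% of all genes. Spleen libraries stood in the CLEC12A-low arm only, so tissue and sorted phenotype are partly joined in these values.

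**Figure D3:**
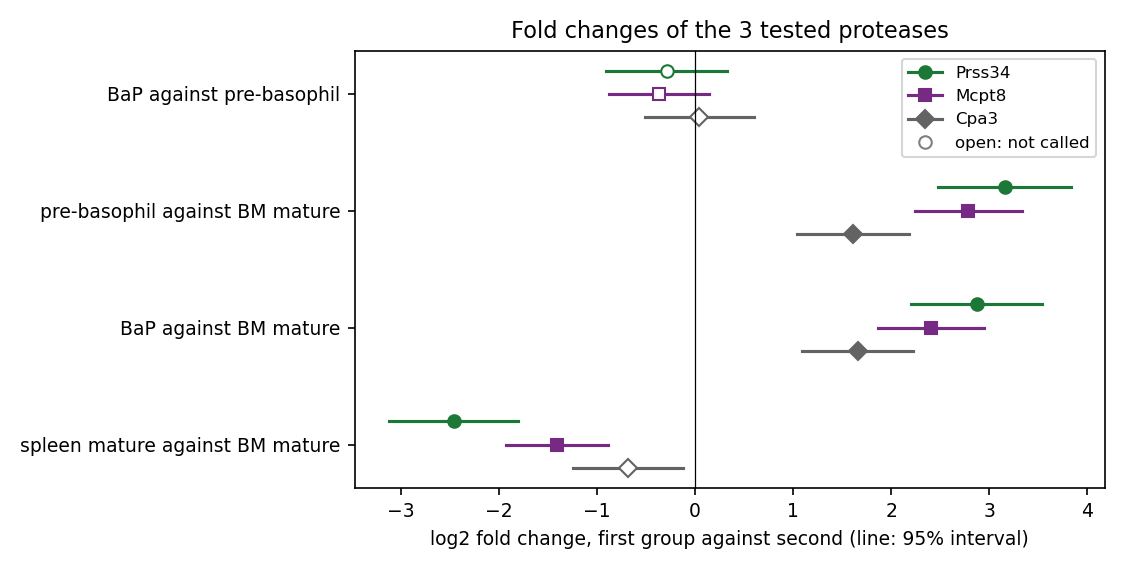
Log2 fold changes of Prss34, Mcpt8 and Cpa3 in 4 comparisons; symbols are edgeR estimates, lines their 95% intervals, and open symbols were not called at an adjusted p of 0.05. In each of the 3 comparisons with mature BM basophils the change was larger in size for Prss34 than for Mcpt8, and larger for Mcpt8 than for Cpa3.

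Whether the proteases changed by unequal amounts was tested on the ratio of their counts within a library, which needs no scaling between libraries. The Prss34 to Mcpt8 ratio was 3.91 ± 0.458 in BaPs, 3.8 ± 0.288 in pre-basophils, 2.91 ± 0.504 in mature BM and 1.43 ± 0.206 in mature splenic basophils (SD, n = 3 each). The Prss34 to Cpa3 ratio was highest in pre-basophils, without overlap with BaPs, and lowest in the spleen, at 20.2 ± 0.967, 25.6 ± 0.187, 8.73 ± 1.62 and 2.57 ± 0.336 (SD, n = 3 each). For Mcpt8 to Cpa3 the values were 5.19 ± 0.454, 6.75 ± 0.48, 3 ± 0.0659 and 1.82 ± 0.322 (SD, n = 3 each).

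Each of the 3 ratios was higher in 6 of 6 CLEC12A-high libraries than in any CLEC12A-low library. The share of other gene pairs that separate in this way is not given here. The ratios are not separate results, since the log2 ratio of Prss34 to Cpa3 is the sum of the other log2 ratios. They also draw on the same counts as the fold changes above. The mean log2 ratio differed by 0.93 for Prss34 to Mcpt8, 2.27 for Prss34 to Cpa3 and 1.35 for Mcpt8 to Cpa3. For all 3 the exact two-sided permutation test gave p = 0.00216 (adjusted over the 3 ratios, 0.00216), the smallest value that 6 libraries against 6 allow. Within the BM alone, with 6 libraries against 3, the differences were 0.42, 1.40 and 0.98, and each exact permutation p was 0.0119, the smallest that this split allows. Both permutations ignored the replicate numbers, although same-numbered BM libraries deviated together. They also treated the sorted groups of each arm as 1 population. The Prss34 to Mcpt8 ratio, however, was 2.34 to 3.27 in mature BM and 1.2 to 1.6 in mature splenic basophils. In the test of 6 against 6, spleen libraries stood in the CLEC12A-low arm only. These p-values therefore hold only if the libraries are independent and each arm is 1 population. In BaP replicate 3 the Prss34 to Mcpt8 ratio was 3.4, the lowest of the CLEC12A-high libraries but above all CLEC12A-low ones.

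Together the proteases took a large share of the CLEC12A-high libraries. They held 5.44 ± 2.16% of all gene counts in BaPs (SD, n = 3; lowest 2.95% in replicate 3, highest 6.82%) and 5.97 ± 0.334% in pre-basophils (SD, n = 3). In mature BM basophils the share was 0.645 ± 0.125% and in mature splenic basophils 0.184 ± 0.0082% (SD, n = 3 each). Within the protease counts Prss34 held 76.5%, 76.7%, 68.2% and 47.7% across BaPs, pre-basophils, mature BM and mature splenic basophils. Cpa3 held 3.79%, 3%, 7.95% and 18.7% across the same groups, so the make-up shifted from Prss34 towards Cpa3 and Mcpt8 as the total fell.

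**Figure D4:**
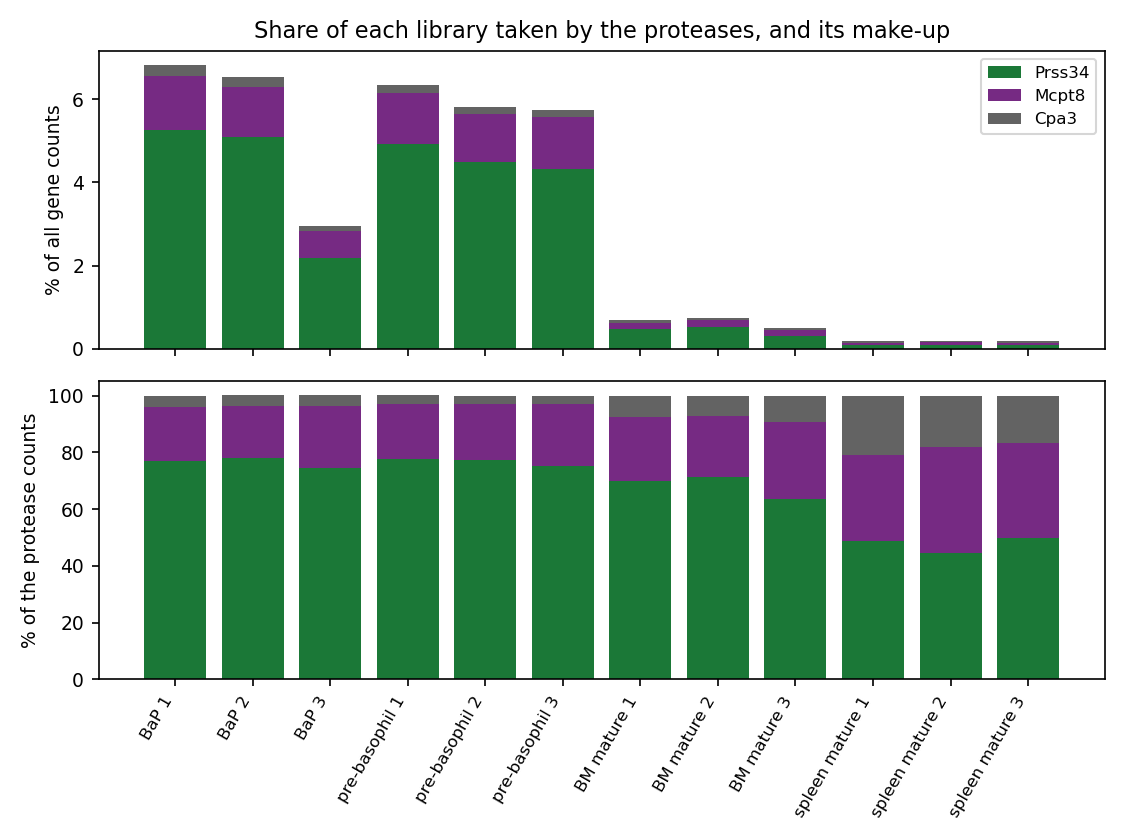
Upper panel, the percentage of all gene counts of each library held by Prss34, Mcpt8 and Cpa3 (stacked bars from 0); lower panel, the percentage of the protease counts held by each. The total was 2.95% to 6.82% in CLEC12A-high libraries and under 1% in the others, and the Prss34 part was smallest in the spleen.

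Neighbours of the members in the genome were described next, from a fixed list. Of 13 other genes of the chymase cluster on chromosome 14, 10 were in the table and 3 passed the filter. In pre-basophils against mature BM basophils 2 of the 3 were called higher and none lower, beside 16.3% and 11% of all genes (list median log2 1.15, against 0). Ctsg, which encodes cathepsin G of neutrophil and mast cell granules, was at 1797 ± 909 CPM in BaPs, 1294 ± 161 in pre-basophils, 118 ± 36.6 in mature BM and 40.4 ± 6.27 CPM in mature splenic basophils (SD, n = 3 each). It rose 11-fold in pre-basophils over mature BM basophils (log2 3.46, SE 0.36, edgeR adjusted p = 1.69e-05), a fold of the same order as that of Prss34.

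Of the cluster's granzyme genes only Gzmc and Gzmb were tested. Gzmc was at 29.2, 63.4, 28.6 and 3.57 CPM on average over the 4 groups in the same order, higher in pre-basophils than in mature BM basophils (log2 1.15, SE 0.27, edgeR adjusted p = 0.00599) and lower in BaPs than in pre-basophils (log2 -1.15, edgeR adjusted p = 0.0215). Gzmb, the cytotoxic granzyme B gene, averaged 350, 716, 509 and 83.3 CPM and was not called between pre-basophils and mature BM basophils (log2 0.49, edgeR adjusted p = 0.185), but was lower in BaPs than in pre-basophils (log2 -1.04, edgeR adjusted p = 0.0323). Against mature BM basophils, 3 of 3 genes were called lower in the spleen, beside 4.67% of all genes. That count was 2 or 3 when single libraries were left out. The lower calls in BaPs were lost when any pre-basophil library was left out (0 of 3 called).

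Near Prss34, 7 of 10 listed tryptase cluster genes were in the table and only Prss28 passed the filter. Prss28, a tryptase-like protease, averaged 11.2, 18.8, 3.66 and 0.847 CPM over BaPs, pre-basophils, mature BM and mature splenic basophils. It was 4.92-fold higher in pre-basophils than in mature BM basophils (log2 2.30, SE 0.36, edgeR adjusted p = 0.00043) and lower in the spleen than in the BM (log2 -2.12, SE 0.47, edgeR adjusted p = 0.0192). The spleen call was lost without mature BM replicate 3, mature splenic replicate 2 or mature splenic replicate 3 (0 of 1 called each time). Its neighbour Prss29, not tested, had 32, 20, 2 and 0 reads over the same groups. Reads of near-identical cluster members could have been split between them by the counting, and these values are uncertain to that extent.

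Serine proteases of granules are made as proenzymes and are activated by other proteases. Of 10 listed cathepsins and other processing proteases, 9 were tested. Between pre-basophils and mature BM basophils 2 were called higher and 2 lower, beside 16.3% and 11% of all genes (median log2 0.05, against 0). Ctsh and Ctsb, cathepsins H and B, were higher in pre-basophils by log2 0.78 and 0.39 (edgeR adjusted p = 0.0215 and 0.026). Ctse and Ctsd, the aspartic cathepsins E and D, were lower, by log2 -1.07 and -0.86 (edgeR adjusted p = 0.000142 and 0.000136). Ctsd was the most abundant, at 353 ± 14, 548 ± 33.2, 998 ± 80.5 and 1436 ± 188 CPM over the 4 groups (SD, n = 3 each), lowest in BaPs and highest in the spleen. Furin stood at log2 -0.35 (edgeR adjusted p = 0.202). The calls of Ctsh and Ctsb were lost when pre-basophil replicate 1, mature BM replicate 1 or mature BM replicate 3 was left out, and that of Ctsb also without pre-basophil replicate 3 or mature BM replicate 2 (edgeR adjusted p up to 0.107 and 0.116), so that 0 or 1 of the 9 were then called higher. Without BaP replicate 3, 4 were, beside 19.8% of all genes, and with the replicate number as a block 4 were, or 3 in the BM libraries alone. The block fit called 4483 of all genes in either direction, against 4112 without it.

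Serglycin and the enzymes that build its sugar chains were tested as 22 genes, of which 2 were called higher and 2 lower in pre-basophils than in mature BM basophils, beside 16.3% and 11% of all genes (median log2 0.24, against 0). Srgn, the serglycin core protein gene, was at 3368 ± 1040 CPM in BaPs, 4560 ± 646 in pre-basophils, 6260 ± 1370 in mature BM and 3342 ± 269 CPM in mature splenic basophils (SD, n = 3 each). Its log2 difference of -0.46 between pre-basophils and mature BM basophils was not called (edgeR adjusted p = 0.136) but was called without BaP replicate 3 (edgeR adjusted p = 0.02). The chondroitin-building genes Chpf and Csgalnact2 were higher in pre-basophils, by log2 1.19 and 0.92 (edgeR adjusted p = 0.00417 and 0.0142). The sulfotransferase genes Chst15 and Ndst1 were lower, by log2 -0.55 and -0.46 (edgeR adjusted p = 0.00724 and 0.046). Of these, the Ndst1 call was lost under 12 of 21 alternatives (edgeR adjusted p up to 0.358), the Csgalnact2 call without pre-basophil replicate 1 or mature BM replicate 3 (up to 0.0656), and the Chst15 call without pre-basophil replicate 1 or with scaling by library size alone (up to 0.0906).

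Of 18 protease inhibitors, 12 were tested, and 5 were called higher and none lower in pre-basophils than in mature BM basophils, beside 16.3% and 11% of all genes (median log2 0.55, against 0). Slpi, a secreted inhibitor of serine proteases, was at 113 ± 25, 271 ± 13.2, 113 ± 18.7 and 42.5 ± 10.3 CPM over the 4 groups (SD, n = 3 each). It was 2.39-fold higher in pre-basophils than in mature BM basophils (log2 1.26, SE 0.19, edgeR adjusted p = 0.000295). Slpi was also called lower in BaPs than in pre-basophils (log2 -1.26, SE 0.19, edgeR adjusted p = 0.00172). Serpinb1a, an intracellular inhibitor of chymotrypsin-like and elastase-like proteases, was 2.29-fold higher (log2 1.2, edgeR adjusted p = 0.0217). Cst3, the cystatin C gene, stood at log2 0.53 and was not called (edgeR adjusted p = 0.0835), though it was without BaP replicate 3 (0.000124). The Serpinb1a call was lost without pre-basophil replicate 1 or 3 or mature BM replicate 2 or 3 (edgeR adjusted p up to 0.102), and the number of inhibitors called higher was 2 or 3 when any pre-basophil library other than replicate 2, or any mature BM library, was left out.

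**Figure D5:**
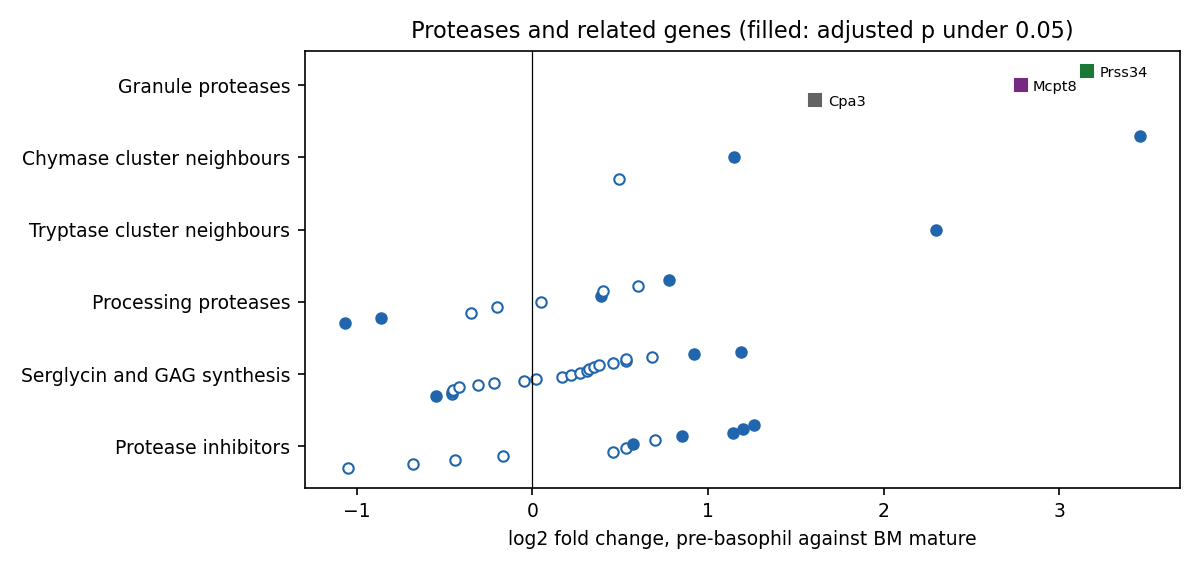
Log2 fold change, pre-basophil against mature BM, of the tested proteases (squares) and of each tested gene of the 5 related lists (circles; filled at an edgeR adjusted p under 0.05). Ctsg and Prss28 lay near Prss34 and Mcpt8, while the processing proteases, serglycin-related genes and inhibitors spread on both sides of 0, from Ctse at -1.07 to Slpi at 1.26.

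The genes most like each protease over the 12 libraries were found by Pearson's r of log2 CPM, searched among 9640 genes with a mean of at least 10 CPM in their highest group. As a description, r between the proteases themselves was 0.993 for Prss34 with Mcpt8, 0.972 for Prss34 with Cpa3 and 0.98 for Mcpt8 with Cpa3. The nearest to Prss34 were Ywhae (0.9958), the gene model Gm7931 (0.9958) and Ccnb2 (0.9945), a mitotic cyclin gene. For Mcpt8 they were Mns1 (0.9971), Hmgn2-ps1 (0.9934) and Clec12a (0.9934), the gene of the sorting marker. For Cpa3 they were Gapdh (0.996), Ostc (0.9948) and Cst7 (0.9947), the cystatin F gene and a member of the inhibitor list. These points share library, depth and group, and the differences between groups enter r. The slopes differed widely, as Ccnb2 averaged 98.8 CPM in pre-basophils and 2.12 in the spleen, and Ywhae 229 and 88.5 CPM.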

How the data were processed

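Bulk RNA-seq was analysed for 12 libraries, grouped by their sample titles. The authors deposited raw read counts per gene symbol. Polyadenylated RNA was amplified as cDNA by the TAS-Seq workflow, reads were trimmed (cutadapt 3.4), aligned to reference RNA (Bowtie2 2.4.2) and counted. The study's methods name GRCm38 and the submitters' processing notes name GRCm39. Strand use, treatment of reads that match several genes and molecular identifiers are not given in the sources used here, so floors cover counting error only. Amplification and shared reads may affect levels of near-identical genes.

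The members and lists were chosen with earlier results of these data known. Counts were scaled by TMM, filtered with filterByExpr (minimum count 10) and tested in 1 fit of all 12 libraries with edgeR 4.0.16 (quasi-likelihood F test, Benjamini-Hochberg over 15083 genes, 0.05). Intervals use the fitted SE and the moderated degrees of freedom. The fits were also run on simulated counts in which few genes changed, as many up as down. In these data 57.2% of genes were called between CLEC12A-high and CLEC12A-low libraries (edgeR). The simulation therefore did not test the scaling, and its outcome is not used here. The study used the TCC package, whose DEGES scaling was rebuilt as an alternative, beside limma 3.58.1 (voom) and DESeq2 1.42.0 in R 4.3.3, other scalings, no filter, a replicate block and leaving out each library. Same-numbered libraries of the 3 bone marrow groups deviated together (r 0.125 to 0.262 in 9 of 9 pairs, against at most 0.0758 for other pairs). Same-numbered pairs with spleen had r of 0.000366 to 0.0899. The main fit and the permutation tests treated all libraries as unpaired, and the replicate block was used only in alternatives. What a number stands for was not found in the labels or the study's methods. Ratios used counts plus 0.5. Replicates within each group differed by more than sampling noise. Since the sources do not say whether pools shared animals, p-values measure only the spread between these libraries.

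Named genes were the members, the 2 most abundant genes of each list, its 2 largest called rises and falls between pre-basophils and mature BM basophils, and the 3 genes most like each member; counts and markers in the text were added after values were seen where they fall outside this rule. Coordinates come from GENCODE M21 and RefSeq (GRCm38.p6), matched by symbol.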

Additional observations from a re-analysis of the deposited data

How the results depend on the processing

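The alternatives gave 479 values for the proteases and their ratios, of which 464 kept their direction and their side of the threshold, or stayed within the spread. All calls of Prss34, Mcpt8 and Cpa3 between pre-basophils and mature BM basophils, and between CLEC12A-high and CLEC12A-low libraries, held under every alternative run, as did those of Prss34 and Mcpt8 between spleen and BM. Between BaPs and pre-basophils, where nothing was called, the log2 difference of Cpa3 turned negative under limma-voom (-0.08) and ranged from -0.23 to 0.39 when single libraries were left out. That of Prss34 ranged from -0.53 to 0.07, and the number of proteases called from 0 to 1. With no filter and without BaP replicate 3, 1 was called, against 6.11% of all genes. With no filter, 5 of 5 were called between CLEC12A-high and CLEC12A-low libraries, against 28.1% of all genes (15.3% called higher). Cpa3 was then called between spleen and BM (log2 -0.66, edgeR adjusted p = 0.000295), against 0.126 at log2 -0.68 with the filter. The p-values of the unfiltered fit are thus not comparable with those of the filtered fit. Without ribosomal and mitochondrial RNA, which shrinks the total, the protease share was 6.53% in pre-basophils and 0.199% in mature splenic basophils. Scaling by library size alone put the median log2 change of all genes at 0.14 to 0.26. Genes called between BaPs and pre-basophils numbered 1068, against 1620 with library size alone, 2091 with no filter and 382 to 1831 with single libraries left out. Between spleen and BM they numbered 1181, against 1796 with no filter and 241 to 2653 with single libraries left out.

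With the replicate number as a block, 1399 rather than 1068 genes were called between BaPs and pre-basophils and 4483 rather than 4112 between pre-basophils and mature BM basophils. With the block and the 9 bone marrow libraries only, added after seeing the data, the calls numbered 1292 (784 without the block) and 4399 (3839). No protease call changed with the block, though Cpa3 stood at -0.03 between BaPs and pre-basophils in both fits. Of 860 counts of list genes called, chosen as alternatives after seeing the data, 764 stayed within 1.5 times, 53 were lower and 43 higher; the cause was not tested. At totals of 3596108 to 8151030 counts, differences in Tpsb2 and Cma1 were hardly detectable.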
